A study of Homo sapiens with 3 samples.

Results

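The genes examined were 5 markers used in the diagnosis of *TFE3*-rearranged carcinoma: *GPNMB*, *CTSK*, *PMEL*, *MLANA* and *TRIM63*. They were chosen by name, and every peak inside a gene or within 10 kb of it was taken from the ChIP-seq peak lists of HA-tagged PRCC-TFE3. Of the 109205 narrowPeak peaks of replicate 1, 14 lay in these windows, and of the 81300 of replicate 2, 10 did. The cells were HK-2, a human line established from kidney proximal tubule, made to express HA-PRCC-TFE3 from a doxycycline-inducible construct. All samples, input DNA included, came from cells given doxycycline at 0.2 µg/ml for 24 h. The label numbers of the 2 ChIP libraries are kept as replicate 1 and replicate 2, and 1 library of input DNA accompanied them. No uninduced cells, cells with wild-type TFE3 or mock precipitation were analysed here. The study's cell culture methods also name HA-PRCC-TFE3 as the protein induced in these HK-2 lines, with a Tet-On system. Its ChIP-seq methods write HA-TFE3 instead, and a figure caption writes HA-TFE3 ChIP-seq in cells inducible for PRCC-TFE3. The name in the labels is used here. The study describes the ChIP-seq replicates as biological, and the labels do not say whether they came from separate cultures. Because the lists hold peaks and no expression, the labelled cell type could not be checked against marker genes.

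TFE3 belongs to the MiT/TFE family of basic helix-loop-helix leucine zipper transcription factors, which also includes MITF and TFEB. These factors bind E-box and related letters in DNA and are best known as regulators of lysosomal genes and, in the case of MITF, of melanocyte pigment genes. In *TFE3*-rearranged renal cell carcinoma a fusion such as PRCC-TFE3 is held in the nucleus, and pathologists stain for products that MiT/TFE factors control in other tissues. Among the markers examined, *GPNMB* and *CTSK* encode a glycoprotein of lysosomes and melanosomes and the collagen-degrading lysosomal protease cathepsin K. *PMEL* and *MLANA* encode melanosomal proteins, the fibril protein detected by the HMB45 antibody and Melan-A. *TRIM63* encodes MuRF1, a muscle E3 ubiquitin ligase.

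RefSeq promoter sequence was given for 3 of the 5 genes, *GPNMB*, *MLANA* and *TRIM63*. They are shown because they differ in the letters that MiT/TFE factors are known to bind, and because *GPNMB* had a promoter peak whereas *MLANA* and *TRIM63* had none. The 250 bases before the annotated start are printed 5′ to 3′ along the gene, from GRCh38.p14, at chr7:23246525-23246774 (+), chr9:5890639-5890888 (+) and chr1:26067631-26067880 (-). Capitals mark each match to the M-box core CATGTG on either strand, with the flanking base of the longer form TCATGTG where that is present. A reverse-strand match appears as the reverse complement, CACATG.
GPNMB: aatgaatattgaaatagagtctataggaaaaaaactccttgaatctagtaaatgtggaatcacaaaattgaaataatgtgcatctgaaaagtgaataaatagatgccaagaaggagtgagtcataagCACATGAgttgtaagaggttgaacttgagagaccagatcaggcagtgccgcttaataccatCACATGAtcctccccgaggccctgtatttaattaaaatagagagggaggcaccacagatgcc
MLANA: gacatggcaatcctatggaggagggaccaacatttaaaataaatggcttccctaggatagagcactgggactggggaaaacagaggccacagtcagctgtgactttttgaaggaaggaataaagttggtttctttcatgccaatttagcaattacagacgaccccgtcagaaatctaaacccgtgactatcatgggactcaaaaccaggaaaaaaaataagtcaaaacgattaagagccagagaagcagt
TRIM63: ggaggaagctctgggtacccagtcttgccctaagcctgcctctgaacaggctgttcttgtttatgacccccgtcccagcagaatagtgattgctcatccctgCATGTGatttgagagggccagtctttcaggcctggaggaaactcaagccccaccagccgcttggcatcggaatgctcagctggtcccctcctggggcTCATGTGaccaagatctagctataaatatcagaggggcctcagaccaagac
The search covered 300 bases, from 250 before to 50 after the start, on both strands, for the E-box CACGTG and the M-box core CATGTG. Longer forms with flanking bases were searched as well, the E-box as TCACGTGA and the M-box as TCATGTG, and each longer form contains the shorter one, so the counts overlap. The *GPNMB* promoter held 2 matches to TCATGTG, both on the reverse strand, whose first printed letters lie 123 and 62 bases before the start. The *TRIM63* promoter held 1 match to TCATGTG that begins 51 bases before the start, and a further CATGTG that begins 148 bases before it. None of the 4 motifs was found in the *MLANA* window, which says only that these letters are not in that stretch. No E-box of either form was found in the *GPNMB* or *TRIM63* window. Among all 35116 RefSeq promoters of this length, 7.26% held the E-box and 0.98% its longer form, and 11.1% held the M-box core and 2.92% its longer form. The peaks are in hg19 coordinates and these sequences in GRCh38.p14, so the position of a match relative to a summit was not measured.

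The first question was which of the marker genes carried fusion protein peaks in both libraries. *GPNMB*, *PMEL* and *TRIM63* held at least 1 peak of each replicate within 10 kb, which is 3 of the 5 genes. *CTSK* held peaks of replicate 1 alone, and *MLANA* held none in either replicate. At the promoter, defined as the start ± 1 kb, only *GPNMB* and *PMEL* of the 5 held a peak, and both held one in each replicate. A peak in this window is counted by position and is not assigned to the gene. The next gene upstream of *PMEL* in the RefSeq order is *CDK2*, and the distance of the *PMEL* promoter peaks to its start was not measured. As background, the genome was tiled into windows of 36.3 kb, the median window length of the 5 genes, and 40.4% of these windows held a peak of both replicates. Of windows of the promoter length, 4.9% did. The tiled windows include gene-poor stretches, and the corresponding shares over all genes were not analysed here, so the background may be low for genes. The genes' own counts, 3 of 5 and 2 of 5, are given beside these shares as a description with no test. The count moved with the window as the background did. With the gene body alone it was 2 of 5 genes, *GPNMB* and *PMEL*, and 24.8% of windows of the median gene length (16.3 kb) held a peak of both replicates. With flanks of 50 kb it was 5 of 5, and 65.1% of windows of the matching length (116.3 kb) did.

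**Figure D1:**
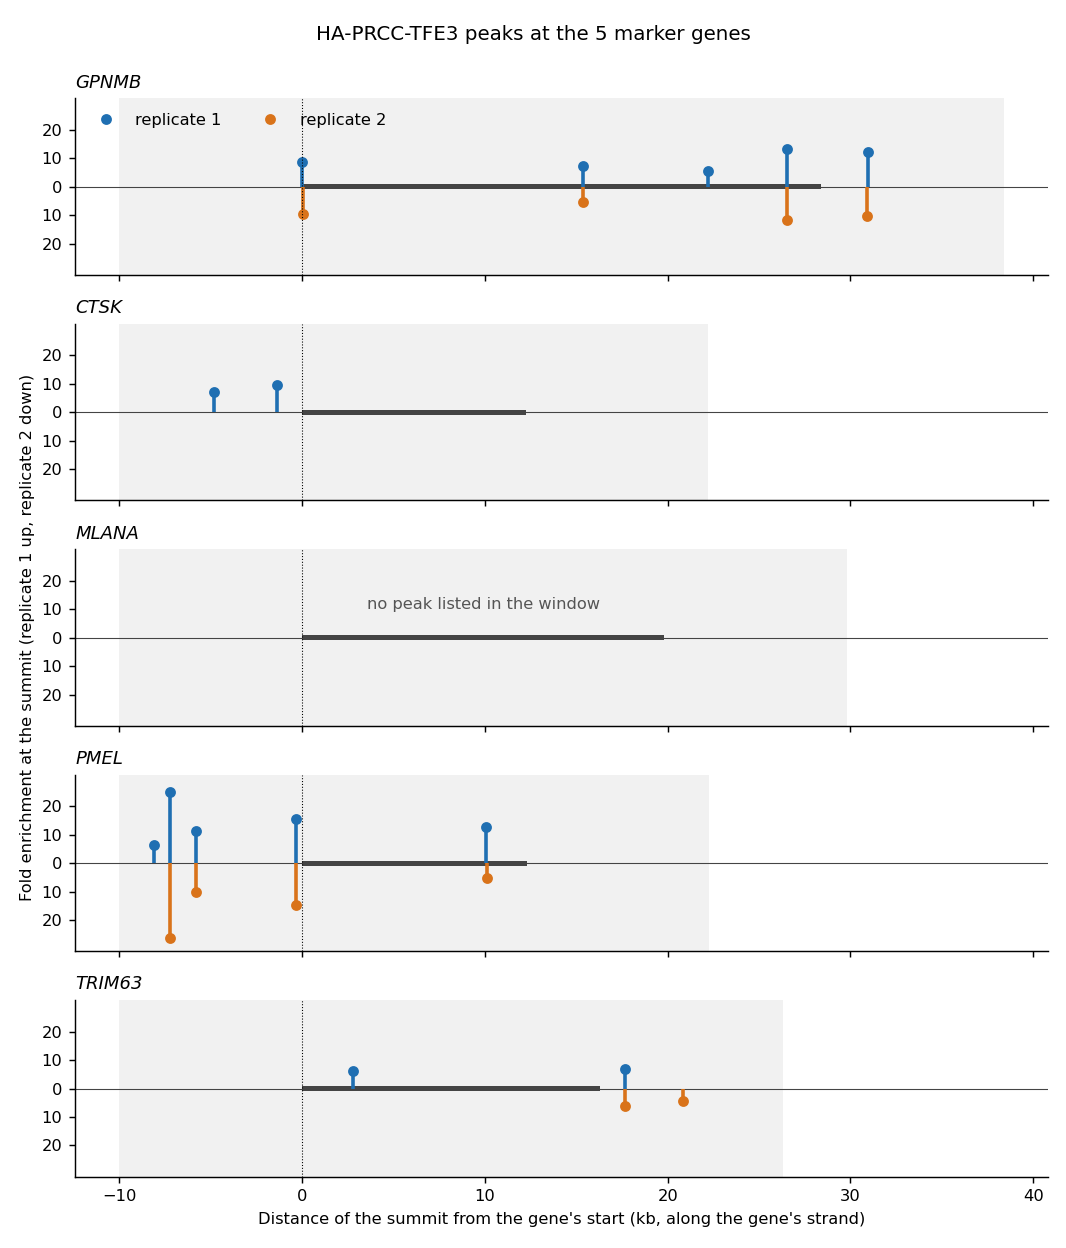
Each panel is 1 marker gene, with the distance of the peak summit from the gene's start in kb along the strand on the x axis and the fold enrichment at the summit on the y axis. Replicate 1 points up and replicate 2 points down, the dark bar is the gene and the grey area is the window of 10 kb on each side. *GPNMB* and *PMEL* have peaks of both replicates at the start, *CTSK* has 2 peaks of replicate 1 alone, *TRIM63* has 1 position in both replicates, and *MLANA* has none.

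The depth behind these lists was moderate and unequal. Replicate 1 had a recovered total of 12235754 tags, replicate 2 one of 7418533 and input DNA one of 21695275. Over the whole genome 65.3% of replicate 1 peaks overlapped a replicate 2 peak, and 88.5% of replicate 2 peaks overlapped a replicate 1 peak. At the 5 genes 9 of the 14 replicate 1 peaks and 9 of the 10 replicate 2 peaks did so. A list names only positions that passed the caller, so the tag count at a position with no listed peak is unknown.

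*GPNMB*, at chr7:23286316-23314729 on the plus strand of hg19, carried 5 peaks of replicate 1 and 4 of replicate 2, and 4 regions were shared. At its start, the replicate 1 summit lay 4 bp and the replicate 2 summit 66 bp downstream of the first base. The fold enrichment there was 8.71 in replicate 1 and 9.43 in replicate 2, with −log10 q values of 13.59 and 13.32. These promoter peaks stood at percentile 60.0 of the fold values of their own list in replicate 1 and 65.8 in replicate 2, so they were of middling height in both. The promoter was not the highest position of the gene. The highest was a site 26.5 kb into the gene body, where the fold enrichment was 13.37 in replicate 1 and 11.55 in replicate 2 and both summits fell on the same base. It ranked at percentile 80.5 and 76.9. A site 30.9 kb from the start, in the downstream flank, had fold enrichments of 12.30 and 10.27. A weaker gene body site at 15.4 kb had 7.18 and 5.41. Only the peak at 22.2 kb was listed in replicate 1 alone, with a fold enrichment of 5.35, and of the 8986 replicate 1 peaks within 5% of that fold 34.8% had a partner in replicate 2.

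Among the 4 shared *GPNMB* sites, the same one had the most tags and the same one the fewest in both libraries. In the BED lists, the site at 26.5 kb held 25 tags in replicate 1 and 17 in replicate 2, with 0 input tags. At the promoter the counts were 19 and 15 tags with 0 input tags. The flank site at 30.9 kb held 21 and 15 tags with 1 input tag, and the site at 15.4 kb held 16 and 8 tags with 2 input tags. In tags per 10000000 tags of the library, called scaled tags from here, the promoter had 15.5 in replicate 1 with a 95% Poisson interval of 9.35 to 24.2, and 20.2 in replicate 2 with an interval of 11.3 to 33.3. An input count of 0 allows up to 1.38 scaled tags. The intervals of the 4 shared sites overlap one another within each replicate, and the differences between the sites were not tested, so no order is claimed. These intervals cover counting error only. The density of *GPNMB* peaks was 103 per Mb in replicate 1 and 82.6 per Mb in replicate 2, and the whole of chromosome 7 had 36.5 and 26.8. Of windows of the same length tiled over the genome, 12.3% held at least 5 replicate 1 peaks and 12.2% at least 4 replicate 2 peaks.

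*CTSK*, at chr1:150768684-150780917 on the minus strand of hg19, had 2 peaks in replicate 1 and none in replicate 2. Both lay upstream of the gene and outside the promoter window. The nearer summit was 1387 bp before the start, with a fold enrichment of 9.63, a −log10 q value of 14.62 and 17 tags against 1 input tag. The further summit was 4819 bp before it, with a fold enrichment of 6.95, a −log10 q value of 8.53 and 12 tags against 2 input tags. Most replicate 1 peaks as high as the nearer one were found again: of the 4761 within 5% of its fold, 88.6% had a partner in replicate 2. Of the 7468 within 5% of the further one, 61.1% did. In the RefSeq gene order *ARNT*, which encodes a dimerisation partner of the aryl hydrocarbon receptor, is the next gene on that side, and whether the peaks lie within it was not measured here. No peak of either replicate was listed in the *CTSK* gene body or at its start. Of windows of this length, 27.7% held at least 2 replicate 1 peaks and 60.3% held no replicate 2 peak.

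*PMEL*, at chr12:56347889-56360167 on the minus strand of hg19, had the highest peaks within the windows of the 5 genes. It carried 5 peaks of replicate 1 and 4 of replicate 2, in 5 regions of which 4 were shared. The highest lay about 7.2 kb upstream of the start, with a fold enrichment of 25.04 in replicate 1 and 26.23 in replicate 2. These values stood at percentile 97.1 and 98.4 of their lists. The peak was 853 bp wide in both, at percentile 98.1 and 98.6 of the widths. Its BED peaks held 49 and 42 tags with 0 input tags. In scaled tags that is 40.1 in replicate 1, with an interval of 29.6 to 52.9, and 56.6 in replicate 2, with an interval of 40.8 to 76.5. At the *PMEL* promoter the summits lay 361 and 360 bp before the start, 1 bp apart. The promoter fold enrichment was 15.36 and 14.74, with 33 and 25 tags and 0 input tags, which put it above the *GPNMB* promoter peak in each replicate. Scaled tags at the promoter were 27.0 (18.6 to 37.9) against 15.5 (9.35 to 24.2) at *GPNMB* in replicate 1, and 33.7 (21.8 to 49.7) against 20.2 (11.3 to 33.3) in replicate 2. These intervals overlap in each library, and the difference between the promoters, of the same direction in both, was not tested.

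The other shared *PMEL* sites were lower. A site 5.8 kb upstream had fold enrichments of 11.23 and 10.27, with 21 and 15 tags and 1 input tag. It stood only 4.49 and 5.17 times above its local background in the BED lists, the lowest such values among the 22 BED peaks of the 2 lists at these genes. It lay next to the broad peak at 7.2 kb, and whether that peak bears on these ratios was not tested. The gene body site, 10.1 kb from the start, had a fold enrichment of 12.59 in replicate 1 and 5.41 in replicate 2. It held 23 and 8 tags with 2 input tags, the most unequal split among the shared sites. The last position, 8.1 kb upstream with a fold enrichment of 6.42, was listed in replicate 1 alone and had no BED peak. Of windows of this length, 6.15% held at least 5 replicate 1 peaks and 6.53% at least 4 replicate 2 peaks, the lowest shares of the 5 genes. All *PMEL* peaks other than the gene body site lay on the side of *CDK2*, a cell cycle kinase gene, and *RAB5B*, an endosomal GTPase gene, which follow upstream of *PMEL* in the RefSeq gene order. No hg19 annotation was used here, so the distances of these peaks to the starts of *CDK2* and *RAB5B* were not measured, and a peak near several genes cannot be assigned to one of them from ChIP-seq alone.

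*MLANA*, at chr9:5890802-5910606 on the plus strand of hg19, had no peak in the narrowPeak or BED list of either replicate within its window of 39.8 kb. Of tiled windows of the same length, 46.4% likewise held no peak of either replicate. The nearest peaks lay just beyond the upstream edge and were found in both replicates. In replicate 1 they had summits 10.8 and 11.1 kb before the start, with fold enrichments of 3.74 and 10.16. In replicate 2 the summits lay 10.9 and 11.1 kb before the start, with 5.78 and 5.13. Those peaks began 664 to 1027 bp outside the window, so the count of 0 at *MLANA* rests on the 10 kb limit. On this side the next genes in the RefSeq order are *BRD10* and *ERMP1*.

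*TRIM63*, at chr1:26377798-26394121 on the minus strand of hg19, had 2 weak peaks in each replicate and 1 shared region. The shared site lay in the downstream flank, with summits 17668 and 17648 bp from the start in replicates 1 and 2. Its fold enrichment was 6.70 and 6.01, at percentile 41.6 and 33.4, so it lay below the median peak of each list. It held 12 tags in replicate 1 and 9 in replicate 2, with 1 input tag. The only peak inside the gene was 2763 bp from the start, in replicate 1 alone, with a fold enrichment of 6.22 and 11 tags against 0 input tags. Of the 7677 replicate 1 peaks of like fold, 51.6% had a replicate 2 partner. In replicate 2 alone, a peak 20860 bp from the start had a fold enrichment of 4.35 and no BED peak. The sequence matches in the *TRIM63* promoter shown above were not accompanied by a listed promoter peak in either library. In the RefSeq order *SLC30A2*, a zinc transporter gene, is next on the downstream side. Of windows of this length, 30.5% held at least 2 replicate 1 peaks and 23.5% at least 2 replicate 2 peaks.

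**Figure D2:**
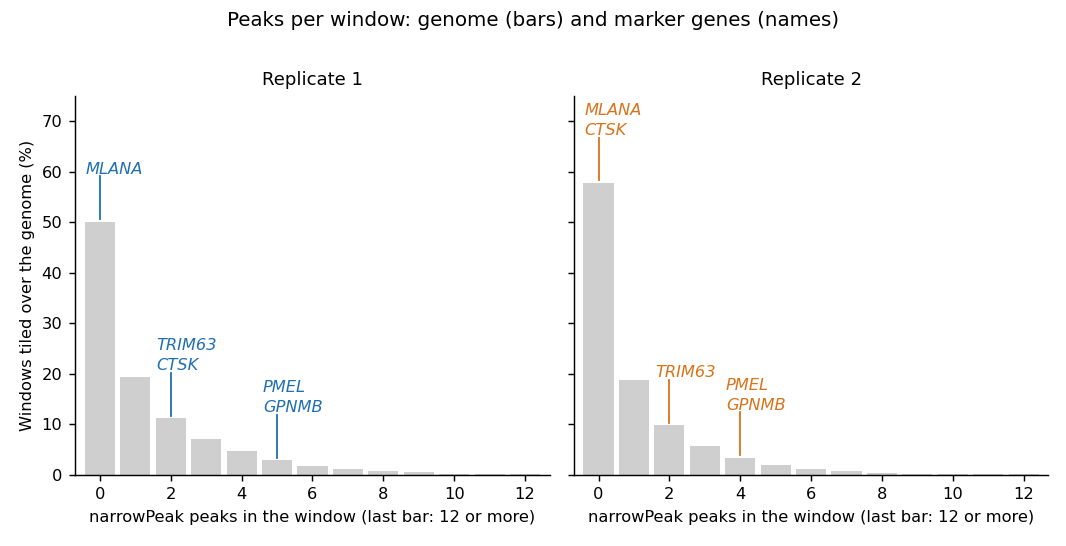
The bars give the percentage of genome windows of 36.3 kb with each number of narrowPeak peaks in replicate 1 and replicate 2, and the names mark the number at each marker gene. In replicate 1 *PMEL* and *GPNMB* hold 5 peaks, *CTSK* and *TRIM63* 2 and *MLANA* 0, and 50.1% of windows hold none.

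Ordered by the highest fold enrichment, the genes stood as *PMEL*, *GPNMB*, *CTSK* and *TRIM63* in replicate 1, with 25.04, 13.37, 9.63 and 6.70. In replicate 2 the order was *PMEL*, *GPNMB* and *TRIM63*, with 26.23, 11.55 and 6.01. At a single shared region the replicates differed by up to 7.18 in fold enrichment, at the *PMEL* gene body site with 23 and 8 tags. That largest difference is given for scale and does not measure the uncertainty of the order. *PMEL* stood above *GPNMB* by 11.67 and 14.68 in replicates 1 and 2, more than 7.18. This rested on the site about 7.2 kb upstream of *PMEL*, which was not assigned to a gene. The next highest *PMEL* site, at its promoter, had 15.36 and 14.74, beside highest values of 13.37 and 11.55 at *GPNMB*. The gaps of 3.74 between *GPNMB* and *CTSK* and 2.93 between *CTSK* and *TRIM63* in replicate 1 were smaller than 7.18. So was the gap of 5.54 between *GPNMB* and *TRIM63* in replicate 2. At the highest site of each gene with peaks in both libraries, the replicates differed by no more than 1.82. *GPNMB* stood above *TRIM63* in both replicates, and the place of *CTSK*, listed in replicate 1 alone, was not resolved. By the fold over input of the BED lists *TRIM63* (39.01) stood above *CTSK* (30.15) in replicate 1, through its gene body peak that replicate 2 did not list. With 1 value per library this is a description and not a test. The median fold enrichment over all peaks at the 5 genes was 9.17 in replicate 1 and 9.85 in replicate 2, and over the whole lists it was 7.49 and 7.32. *GPNMB* and *PMEL* each supplied 5 of the 14 replicate 1 peaks and 4 of the 10 replicate 2 peaks, and *MLANA* supplied none. The pooled medians therefore mostly describe *GPNMB* and *PMEL* and not the 5 genes alike.

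The replicates were then compared at the shared sites. The 9 shared regions of the 5 genes comprised 2 at promoters, 3 in gene bodies, 2 in upstream flanks and 2 in downstream flanks. Summits of the replicates were 0 to 62 bp apart, with a median of 23 bp, and the median over all shared peaks of the genome was 32 bp. Fold enrichment was higher in replicate 1 at 7 of the 9 regions, the exceptions being the *GPNMB* promoter and the *PMEL* site at 7.2 kb. The corresponding share over all shared regions of the genome was not computed, so this count is not read as a trait of these genes.

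**Figure D3:**
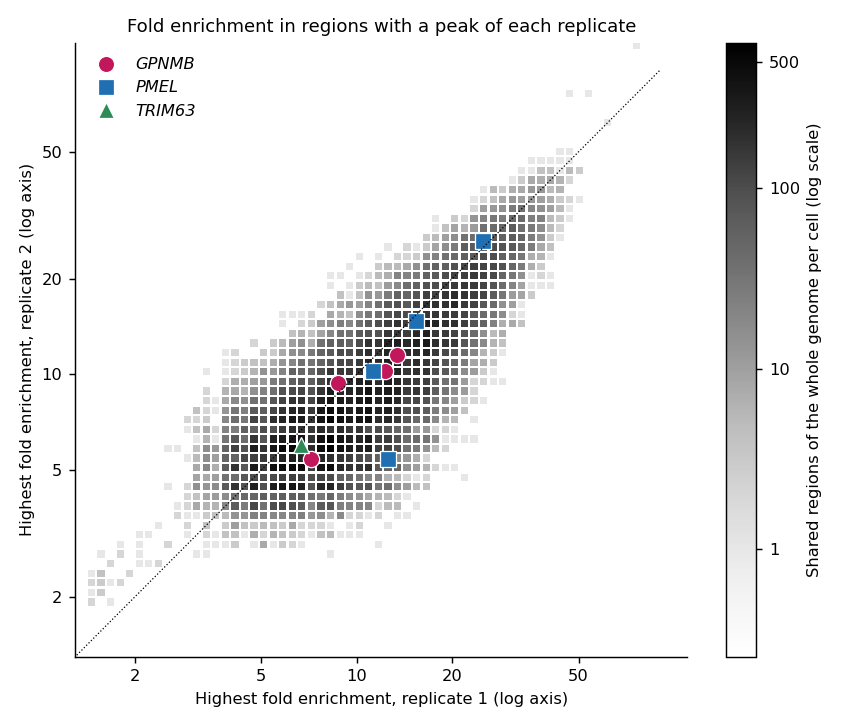
Each coloured point is a region with a peak of both replicates at *GPNMB*, *PMEL* or *TRIM63*, with the highest fold enrichment in replicate 1 on the x axis and in replicate 2 on the y axis, both logarithmic. Grey squares show all 70426 shared regions of the genome and the dotted line marks equal values. The *PMEL* gene body site, at 12.59 and 5.41, lies farthest below the line.

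The share of tags that came from replicate 2 was compared with that over the 55655 matched BED peaks of the genome, where it was 39.8%. It was 40.4% at *GPNMB* (55 of 136 tags, interval 32.1 to 49.2%), 41.7% at *PMEL* (90 of 216 tags, 35.0 to 48.5%) and 42.9% at *TRIM63* (9 of 21 tags, 21.8 to 66.0%). In 3 two-sided exact binomial tests the p-values were 0.930, 0.579 and 0.825, and each was 0.93 after Benjamini-Hochberg adjustment. Among the 9 single sites the lowest exact p-value was 0.142, at the *PMEL* gene body site, where replicate 2 supplied 25.8% of the tags with an exact 95% interval of 11.9 to 44.6%, and its adjusted value was 0.974. No departure from the genome-wide split was detectable at these counts, and the intervals leave room for sizeable ones. The tests took only BED peaks listed in both replicates, so they leave out the sites of replicate 1 alone, which are both *CTSK* peaks, the *GPNMB* site at 22.2 kb and the *TRIM63* gene body site. They cover counting error only, treat tags as independent with the handling of duplicates unknown, and compare the 2 libraries and not conditions.

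Input DNA gave the background. Its BED list of 286 peaks held none in any of the 5 windows, and the nearest input peak was 51.7 kb from the *TRIM63* window and at least 674 kb from the others. Over the 13 replicate 1 BED peaks at the genes there were 269 ChIP tags and 12 input tags, and 5 of the peaks had 0 input tags. Over the 9 replicate 2 BED peaks there were 154 ChIP tags and 7 input tags, with 0 at 4 peaks. No single peak had more than 2 input tags. Averaged over the peaks, that was 16.9 ChIP against 0.425 input scaled tags in replicate 1, and 23.1 against 0.359 in replicate 2. Peaks were selected for a high ChIP count, so this contrast describes the lists and tests nothing.

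**Figure D4:**
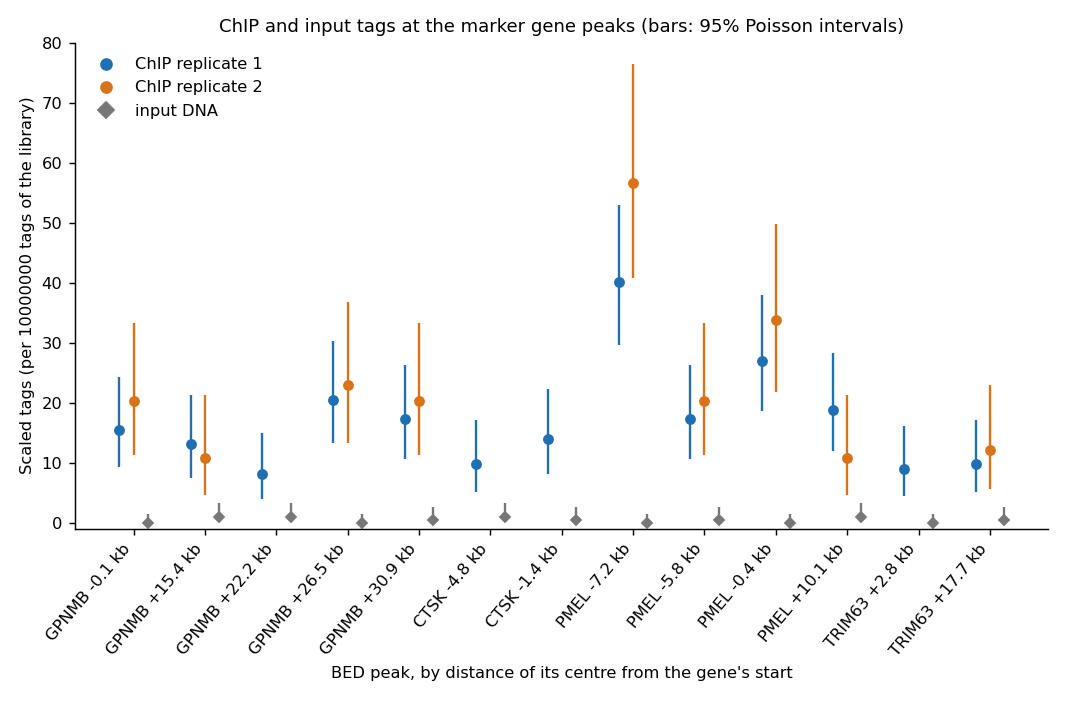
Scaled tags (per 10000000 tags of the library) at each BED peak of *GPNMB*, *CTSK*, *PMEL* and *TRIM63*, for ChIP replicate 1, ChIP replicate 2 and input DNA, with bars for exact 95% Poisson intervals and, at 0 input tags, the limit of 3 counts. Every listed ChIP value lies above the input interval, the *PMEL* site at 7.2 kb is highest with 40.1 and 56.6, and sites without an orange point were not listed in replicate 2.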

How the data were processed

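Peak lists of 2 HA-PRCC-TFE3 ChIP libraries and 1 input DNA library were analysed, with groups taken from the sample labels. Peaks were called by the authors for each sample separately. Their methods name MACS in Strand NGS, input DNA as the comparison and a p-value threshold described as stringent. The lowest −log10 q value of the deposited narrowPeak lists was 1.31 in replicate 1 and 1.35 in replicate 2. Both minima correspond to q-values just below 0.05. Whether the deposited lists are the calls made at the study's p-value threshold is not stated. The aligner, the handling of duplicates and the MACS version are not given in the sources used here. The build hg19 is named in the submitters' processing notes, and on 16 chromosomes narrowPeak peaks ended beyond the hg38 sequence. The deposited narrowPeak lists give a fold enrichment ratio at the summit, −log10 p and −log10 q values, and a score derived from the −log10 q value. The deposited BED lists of ChIP samples give, for each peak, its tag count, that count as a signal per 10000000 tags of the library, a score, a signal of scaled input, fold ratios over input and over local background, and p-values, and the deposited input list gives a score, a signal, a fold ratio and p-values. Their header names were displaced, so columns were read by position in the layout of a HOMER peak table, a tool that neither the labels nor the methods name. The scores and p-values were not used.

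Gene windows were the gene ± 10 kb, and a peak belonged to a window it overlapped by at least 1 bp. A shared region had peaks of each replicate with at least 1 bp in common. Each library's total came from dividing its summed tag counts by its summed scaled signal. The number of input tags at a peak was worked out as its tag count over its input fold, where 0 input tags had been written as 0.5, and 100% of the values came out whole within 0.05 tag or 1%. Windows for the background were tiled over chromosomes 1 to 22 and X. Intervals on tags are exact Poisson intervals at 95%, and those on shares are exact binomial ones. The split of tags between replicates was compared by two-sided exact binomial tests with Benjamini-Hochberg adjustment. Percentiles are ranks within the list of the same sample. RefSeq gene order, from GRCh38.p14, gave the names of neighbours only. Python 3.11.15, pandas 2.3.3, numpy 2.4.6, scipy 1.17.1 and matplotlib 3.10.9 were used, and the overlap and tiling functions were tested on simulated data. The genes, motifs and gene lists were chosen with earlier results of these data known. The genes named were the 5 markers and the neighbours next to a peak of theirs in the gene order. Alternatives covered the peak list, the q threshold, the window, the promoter width, the overlap and each replicate left out. Lists of other melanocyte, osteoclast, muscle ubiquitin ligase and renal tumour marker genes had been planned and were not analysed here, because they need gene positions in hg19.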

Additional observations from a re-analysis of the deposited data

How the results depend on the processing

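Of 51 alternative values, 36 stayed close to the reported value, 15 moved and 0 reversed. All are counts, folds, percentiles or tags without a sign, so none could reverse. The tag values could not move either, because every BED peak at the genes overlapped a narrowPeak peak. A change from 3 genes with peaks of both replicates to 2 or to 4 was counted as close, so the tally does not measure stability. The counts depended on the window. With the gene body alone, the genes held 6 peaks of replicate 1, 4 of replicate 2 and 4 shared regions, and 2 genes in place of 3 had a peak of both replicates (24.8% of tiled windows of that length did). With flanks of 50 kb they held 53, 44 and 38, and 5 genes had a peak of both replicates (65.1% of tiled windows). With the BED lists, with −log10 q above 5 or with the summit required in the window, the number of genes with peaks of both replicates stayed at 3. No stricter q limit was tried. The only shared *TRIM63* site had −log10 q values of 8.49 and 6.16 in replicates 1 and 2, so a limit above 6.16 would leave *TRIM63* out. With promoters of 500 bp or 2 kb on each side the number with promoter peaks stayed at 2. The matching shares of tiled windows were not analysed for these settings, so the counts only describe the 5 genes. Using the peaks of a single replicate, 3 to 4 genes held a peak, and the number with a promoter peak was 2 with either. It was *CTSK* that made the fourth, without replicate 2. Of tiled windows of 36.3 kb, 50.1% held no peak of replicate 1 and 57.8% held none of replicate 2. Promoter shares for a single replicate were not analysed here. The fold over input of the BED lists gave higher maxima than the narrowPeak fold. They were 88.67 and 99.42 at *GPNMB*, 173.78 and 245.62 at *PMEL*, and 39.01 and 26.32 at *TRIM63* for replicates 1 and 2. At *CTSK* the maximum was 30.15 in replicate 1, so *TRIM63* and *CTSK* changed places in replicate 1. That change rests on the *TRIM63* gene body peak, listed in replicate 1 alone with 0 input tags. The replicate 2 maximum of *TRIM63* was at the shared flank site, where replicate 1 had 21.28, below *CTSK*. By construction the BED fold divides by the input tags of each peak, with 0.5 in place of 0. Ranked by −log10 q, the highest *CTSK* peak stood at percentile 63.6 in place of 65.4, and the cause was not tested. No paired analysis was possible because both ChIP libraries belong to 1 group, and input DNA has no numbered replicates. Depth limits the tag comparisons to counts of 8 to 49 per peak.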

Other observations

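With flanks of 50 kb, all 5 genes held a peak of both replicates, as did 65.1% of tiled windows of that length. The positions between 10 and 50 kb from the genes lie outside the windows of the report and are given as values only, and their distances to other genes were not measured. Around *TRIM63*, where the window itself held 2 weak peaks in each replicate, there were 13 further peaks of replicate 1 and 12 of replicate 2, of which 11 in each overlapped the other replicate. The highest had a fold enrichment of 19.31 in replicate 1 and 18.96 in replicate 2 and lay 44.2 and 44.1 kb before the start. Around *PMEL* there were 13 and 12 further peaks, with the highest at 27.82 and 24.38, at 30.8 and 30.9 kb before the start. Those values exceed the peak at 7.2 kb in replicate 1 and fall short of it in replicate 2.

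*MLANA* had 6 further peaks of each replicate, 5 of them in both. The highest differed between the libraries, at 39.1 kb before the start with a fold enrichment of 14.98 in replicate 1 and at 45.8 kb before it with 14.76 in replicate 2. *GPNMB* had 3 further peaks in each replicate. The highest lay 52.6 and 52.5 kb after the start, with fold enrichments of 20.64 and 12.97, both above the highest peak inside the *GPNMB* window. *CTSK* had 4 further peaks of replicate 1 and 1 of replicate 2. Both replicates listed a site 43.4 kb after its start, beyond the end of the gene, with fold enrichments of 11.77 and 10.91, so the only peak of replicate 2 within 50 kb of *CTSK* lay on the side of *CTSS*, which encodes the related lysosomal protease cathepsin S.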
